A study of Rattus norvegicus with 24 samples.

Results

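The miR-204 and miR-211 family was followed in small RNA sequencing libraries of the rat brain at a chronic time-point after traumatic brain injury (TBI). Its members are the 4 mature strands rno-miR-204-5p, rno-miR-204-3p, rno-miR-211-5p and rno-miR-211-3p, found by name among the 728 miRNAs listed in the count tables, and the rat prefix is left out from here on. The family was chosen by the level of miR-211-5p, which had differed between TBI and sham rats in the perilesional cortex in earlier results of these data. Its cortical injury values are therefore given as a description, without a test.

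The rats were adult Sprague-Dawley rats, males per the study's methods, examined 3 months after either a lateral fluid-percussion TBI or sham surgery. Each of 6 TBI and 6 sham rats gave 1 library of the perilesional cortex and 1 of the ipsilateral thalamus, 24 libraries in all. The TBI rats were those in which magnetic resonance imaging had shown a rim of enhanced signal around the lesion, so they stand for rats with such a rim rather than for all injured rats. No transgene or drug was part of any group. The oligodendrocyte miRNAs miR-219a and miR-338 were higher in thalamus than in cortex for 4 of 4 strands in each group of rats (edgeR, adjusted over all miRNAs tested), the marker check of the tissue labels. Of all miRNAs tested, 50 of 375 were higher in thalamus in shams and 51 of 386 in TBI.

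A miRNA is cut from a hairpin precursor with a 5p and a 3p strand, 1 of which is usually kept as the guide that pairs with messenger RNAs through its seed, the bases from 2 to 8. miR-204 and miR-211 are paralogs whose genes lie inside melastatin-type TRP channel genes, and miR-204 is known to be abundant in the retinal pigment epithelium and in the choroid plexus epithelium, while miR-211 is best known from melanocytes. Both are brain-expressed miRNAs, and the same messenger RNAs are expected to be targets of both guides because they share a seed.

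The mature sequences are shown because the 5p strands differ by a single base, which bears on how their reads were told apart. They are the RefSeq sequences on the rat build GRCr8, with the seed in capitals, written 5′ to 3′.
miR-204-5p: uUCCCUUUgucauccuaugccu
miR-211-5p: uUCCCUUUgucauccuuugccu
miR-204-3p: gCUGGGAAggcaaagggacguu
miR-211-3p: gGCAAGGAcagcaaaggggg
miR-204-5p lies at chr1:229743493-229743514 and miR-204-3p at chr1:229743532-229743553, both on the plus strand within Trpm3. miR-211-5p lies at chr1:127189353-127189374 and miR-211-3p at chr1:127189389-127189408, both on the plus strand within Trpm1. The 5p strands were identical at 21 of 22 bases, and their 1 substitution was A17U, from miR-204-5p to miR-211-5p and counted from the 5′ end. Among the 655 listed miRNAs with a reference sequence, the seed UCCCUUU was found in these 2 strands and in no other. Neither 3p seed was found in another listed miRNA. The sources used here do not state how a read with a sequencing error at base 17 was assigned, and the miR-211-5p counts hold any miR-204-5p reads misread at that base.

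The libraries held 744564 to 4069284 miRNA reads in cortex and 523298 to 4139901 in thalamus. Levels below are counts scaled to 1000000 miRNA reads (CPM) after trimmed-mean (TMM) scaling of all 24 libraries together, so that 1 read was worth 0.206 to 2.24 CPM. The library of TBI rat 45 stood apart in both regions. Its summed epithelial miRNAs (the miR-200 and miR-141 family) reached 137 CPM in cortex, against at most 19.2 CPM in the other TBI cortices, and its sensory organ and pineal miRNAs (miR-182, miR-183 and miR-96) reached 126 CPM in cortex and 134 CPM in thalamus. Results that rest on this rat are given with and without it. In bulk tissue, fewer cells of a type and less RNA per cell cannot be told apart.

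miR-204-5p, the guide strand of miR-204, was by far the most abundant member. By mean CPM it ranked 68 of 728 in cortex and 48 of 728 in thalamus, with 639 to 5313 reads per cortical library and 958 to 56047 reads per thalamic library. In sham cortex it ranged from 958 CPM (rat 55) through a median of 1267 CPM to 1902 CPM (rat 26). In TBI cortex it ranged from 929 CPM (rat 63) through a median of 1118 CPM to 2170 CPM (rat 45). The cortical groups overlapped almost entirely. In sham thalamus the lowest value was 1135 CPM (rat 32), the median 1903 CPM and the highest 4890 CPM (rat 50), with rat 34 close behind at 4301 CPM. In TBI thalamus the lowest value was 946 CPM (rat 52), the median 1751 CPM and the highest 13632 CPM (rat 45). The other 5 injured thalami lay at or below 1967 CPM, so the thalamic groups overlapped and 1 library set the upper end.

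miR-211-5p, the strand of miR-211 that shares the seed, was far scarcer, with 10 to 179 reads per cortical library and 9 to 664 per thalamic library, and ranked 278 of 728 in cortex and 271 of 728 in thalamus. In sham cortex it ranged from 12.3 CPM (rat 55) through a median of 16.1 CPM to 30.1 CPM (rat 32). In TBI cortex it ranged from 22.4 CPM (rat 63) through a median of 43.1 CPM to 82.0 CPM (rat 24). In this comparison, which chose the family, 4 of 6 injured cortices lay above every sham cortex, and rats 63 and 52 (22.4 and 28.1 CPM) lay below the highest sham. In sham thalamus miR-211-5p ranged from 9.24 CPM (rat 32) through a median of 18.6 CPM to 55.6 CPM (rat 50). In TBI thalamus it ranged from 8.12 CPM (rat 52) through a median of 25.1 CPM to 162 CPM (rat 45). The highest rat of each thalamic group was the same as for miR-204-5p.

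**Figure D1:**
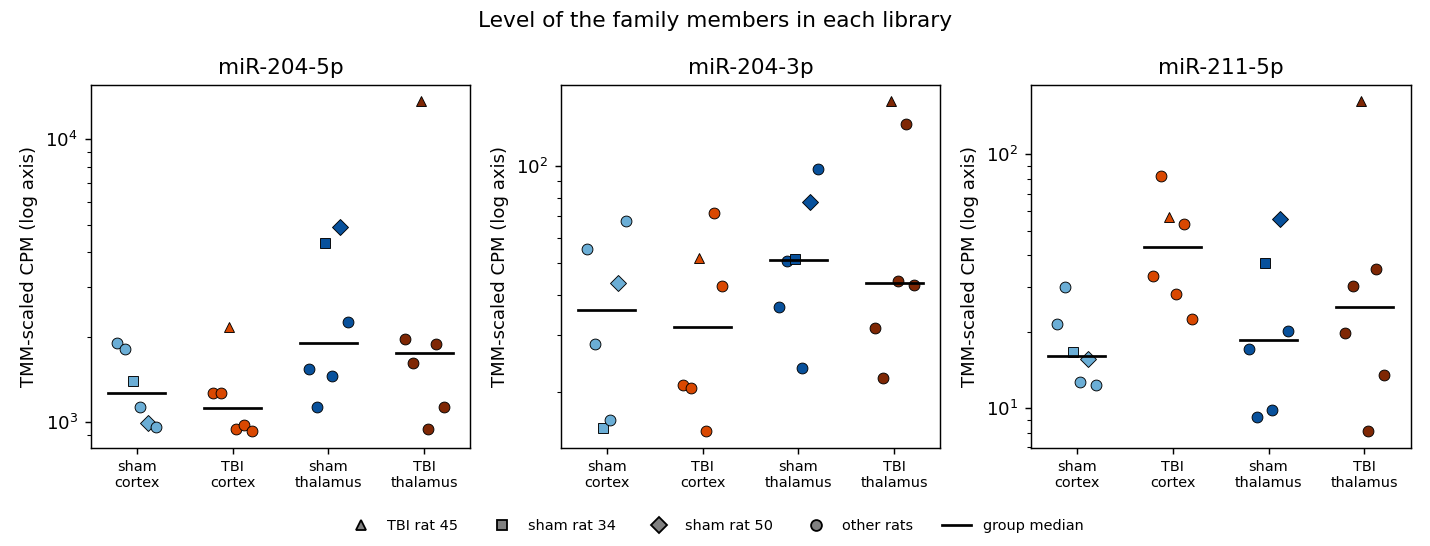
Level of miR-204-5p, miR-204-3p and miR-211-5p in each library, as TMM-scaled CPM on a log axis, with 1 point per rat and a bar at the group median (n = 6 per group). Rat 45 sits at the top of the TBI thalamus for each strand, and in cortex miR-211-5p alone has a TBI median (43.1 CPM) above the highest sham value (30.1 CPM).

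The 3p strands, the usual passenger strands, were low. miR-204-3p had 27 to 83 reads per cortical library and 44 to 654 per thalamic library. Its medians were 35.8 CPM in sham cortex, 31.7 CPM in TBI cortex, 51.2 CPM in sham thalamus and 43.5 CPM in TBI thalamus. Single libraries ran from 15.1 CPM (rat 52, TBI cortex) to 159 CPM (rat 45, TBI thalamus), and the groups overlapped in each pair. miR-211-3p had at most 3 reads in any library. It was seen in 4 of 6 TBI cortices, in 1 of 6 sham cortices, in 3 of 6 TBI thalami and in 0 of 6 sham thalami. A count of 0 allows up to 3 reads, or 0.619 to 6.71 CPM in the thalamic libraries, and the strand failed the filter on low counts, so that 3 of 4 members were tested in each comparison.

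Cortical injury was compared by edgeR over the 371 miRNAs that passed the filter, and 21 of them passed an adjusted p of 0.05, which is 5.66% of those tested, 11 higher and 10 lower in TBI. For miR-211-5p, whose place among them was fixed by the choice of the family, the log2 difference (TBI minus sham) was 1.33 (SE 0.34). Over the 12 fits that each left out 1 rat, it lay between 1.07 (without TBI rat 24) and 1.58 (without sham rat 32). It was 1.38 with 4 reference miRNAs as the scale and 1.30 with all 24 libraries in 1 fit. Whether a member passed the adjusted threshold differed among these fits. No call is read from them, since they use the values that chose the family. miR-204-5p differed by -0.087 on the log2 scale (SE 0.24), or by -0.36 (SE 0.21) without TBI rat 45. The log2 difference of miR-204-3p was -0.0021 (SE 0.45). All of these describe the contrast that chose the family, so nothing is read from the count of members against the background.

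Because both 5p strands share a library, the share of miR-211-5p among the reads of the pair does not depend on scaling. In sham cortex it ranged from 1.11% (rat 38) through a median of 1.22% to 1.63% (rat 32). In TBI cortex it ranged from 2.35% (rat 63) through a median of 2.72% to 6.06% (rat 24). These groups did not overlap. Means were 1.31% ± 0.226 and 3.59% ± 1.60 (SD, n = 6 each), a description that uses the same contrast as the choice of the family. The 95% Wilson interval was 1.63% to 3.38% for the lowest injured rat and 1.32% to 2.00% for the highest sham, so the intervals of those 2 libraries overlapped. They cover counting error only.

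In thalamus, which did not choose the family, the share was lower. It ranged from 0.670% (rat 38) through a median of 0.869% to 1.12% (rat 50) in shams and from 0.851% (rat 52) through a median of 1.18% to 1.84% (rat 56) in TBI. The groups overlapped, and the 2 highest injured thalami were those of rats 24 and 56, which also had the highest shares in injured cortex (6.06% and 5.17%). The mean share was 0.905% ± 0.174 in shams and 1.31% ± 0.426 in TBI, a difference of 0.409 percentage points (two-sided exact permutation p = 0.0498, adjusted p = 0.0996 over the 6 share tests, n = 6 each). After adjustment the difference did not pass the threshold. Over the fits without 1 rat it lay between 0.303 (without TBI rat 56) and 0.502 percentage points (without TBI rat 52), and the unadjusted exact p was under 0.05 in 4 of 12.

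Between regions of the same rat, the share was lower in thalamus than in cortex in all 6 sham rats and in all 6 TBI rats. The 95% Wilson intervals of the 2 libraries overlapped in each sham rat and in TBI rat 63. In sham rat 26 the shares were 1.11% in cortex and 1.10% in thalamus. The mean paired difference was -0.400 percentage points in shams and -2.28 percentage points in TBI. Both differences contain cortical values of the contrast that chose the family and are a description, without a test. Their exact p values were still among the 6 share tests adjusted together, which made the adjusted p of the thalamic miR-211 share smaller. Rat 45, with the highest 5p levels in its group's thalamus, had a share of 2.54% in cortex and 1.17% in thalamus, inside the range of the other injured rats in both regions.

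**Figure D2:**
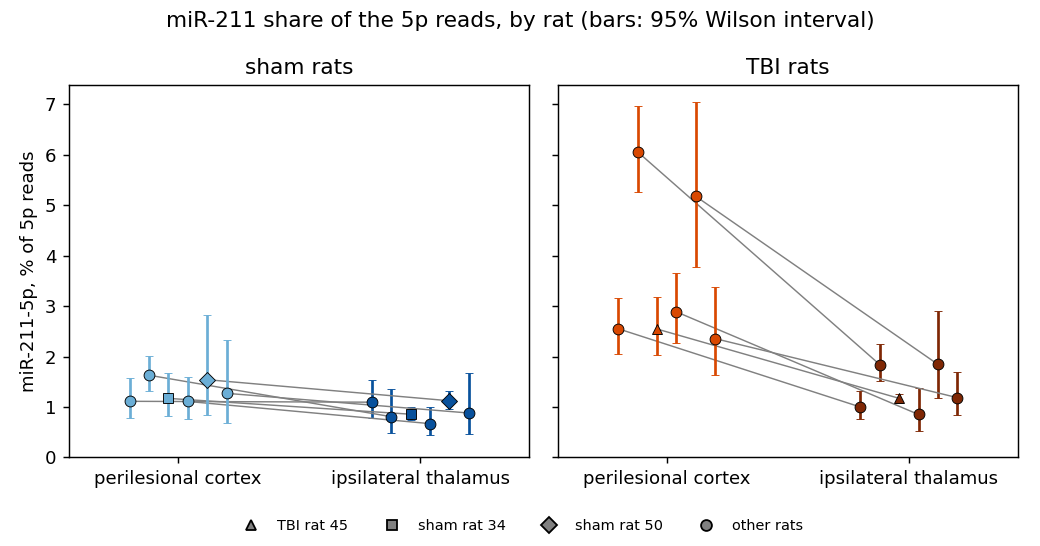
Share of miR-211-5p among the reads of both 5p strands, in percent, for each rat in perilesional cortex and ipsilateral thalamus, with lines joining the 2 libraries of a rat and bars for the 95% Wilson interval. Injured cortices lie between 2.35% and 6.06% and sham cortices between 1.11% and 1.63%, and every line falls from cortex to thalamus.

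The strand choice of miR-204 was also read within each library. Its 5p strand made up 97.1% ± 2.14 of the reads of both arms in sham cortex, 96.9% ± 2.15 in TBI cortex, 97.5% ± 1.37 in sham thalamus and 96.8% ± 2.21 in TBI thalamus (mean ± SD, n = 6 each). The injury difference in thalamus was -0.633 percentage points (exact permutation p = 0.626, adjusted p = 0.788 over the 6 share tests). The paired thalamus-to-cortex difference was 0.426 percentage points in shams, with 3 of 6 rats higher in thalamus (exact p = 0.656, adjusted p = 0.788). In TBI it was -0.0899 percentage points, with 5 of 6 rats higher in thalamus (exact p = 1.0). The 5 libraries with under 1000000 miRNA reads had 5p shares of 93.1% to 95.8%, and the other 19 had 95.5% to 98.9%. Depth thus moved with the arm share, and its part in the values was not tested.

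Thalamic injury was compared over 390 miRNAs, of which 2 (0.513%) passed the adjusted threshold in edgeR, and 22 had an unadjusted p under 0.05. None of the 3 tested members passed. The log2 difference between TBI and sham was 0.43 for miR-204-5p (edgeR adjusted p = 0.860, SE 0.62), 0.36 for miR-204-3p (adjusted p = 0.850, SE 0.49) and 0.83 for miR-211-5p (adjusted p = 0.815, SE 0.66). The direction rested on 1 library. Without TBI rat 45 it became -0.70 for miR-204-5p (adjusted p = 0.913, SE 0.38), -0.23 for miR-211-5p (adjusted p = 0.994) and -0.0037 for miR-204-3p. Leaving out sham rat 50 gave the opposite ends, 0.86 for miR-204-5p and 1.40 for miR-211-5p. In a fit of all libraries, the thalamic minus the cortical injury effect was -0.46 on the log2 scale for miR-211-5p (SE 0.79), 0.56 for miR-204-5p (SE 0.72) and 0.41 for miR-204-3p (SE 0.70). These differences are described without a test, since they contain the cortical contrast, and each was smaller than its SE.

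Thalamus was then compared with cortex in sham rats, over 375 miRNAs of which 91 (24.3%) passed. This fit did not pair the 2 libraries of a rat. With the rat as replicate block, which pairs them, 81 (21.6%) passed, neither miR-204 strand among them. miR-204-5p was higher in thalamus in 4 of 6 sham rats, with a ratio within a rat from 0.624 (rat 32) to 4.92 (rat 50). Its log2 difference was 0.96 (edgeR adjusted p = 0.0510, SE 0.34), just short of the threshold. Without rat 50 it was 0.62 (adjusted p = 0.222), and the adjusted p lay between 0.0319 and 0.222 over the 6 fits that each left out 1 rat, under 0.05 in 2 of them. The difference was 0.62 for miR-204-3p (adjusted p = 0.279, SE 0.41). For miR-211-5p it was 0.50 (SE 0.41), a description, since the sham cortices were 1 side of the contrast that chose the family. For miR-211-5p, 3 of 6 sham rats were higher in thalamus, and without rat 50 the log2 difference was 0.064.

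In TBI rats 81 of 386 miRNAs (21.0%) differed between the regions in the unpaired fit, and neither miR-204 strand passed. On the log2 scale, thalamus minus cortex was 1.60 for miR-204-5p (adjusted p = 0.0624, SE 0.58) and 1.10 for miR-204-3p (adjusted p = 0.150, SE 0.52). For miR-211-5p it was 0.090 (SE 0.60), a description throughout, since the injured cortical values that chose the family are 1 side of it. With the rat as replicate block 150 of 386 miRNAs (38.9%) passed in edgeR, and so did both miR-204 strands. In this paired fit miR-204-5p was higher in thalamus by 0.91 (SE 0.25, edgeR adjusted p = 0.00765) and miR-204-3p by 0.94 (adjusted p = 0.00478), while the value for miR-211-5p was -0.46 (SE 0.33). Without rat 45 and with the block, 164 of 385 (42.6%) passed, both miR-204 strands among them. In that fit miR-204-5p was higher by 0.46 (adjusted p = 0.0119), miR-204-3p was higher by 0.64 (adjusted p = 0.0140), and the value for miR-211-5p was -1.05 (SE 0.24). miR-204-5p and miR-204-3p were higher in thalamus in 6 of 6 TBI rats, and miR-211-5p in 1 of 6, rat 45, in which the ratio of thalamus to cortex was 2.85. Across the other injured rats the ratio for miR-211-5p was as low as 0.290 (rat 52).

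The levels of the 5p strands were correlated among rats in 3 of the 4 groups by Pearson's r. Over log2 CPM of the 6 rats, Pearson's r between miR-204-5p and miR-211-5p was 0.87 in sham cortex (exact permutation p = 0.0264, adjusted p = 0.0352 over the 4 groups), and 0.82 with scaling by library size alone (adjusted exact p = 0.0611). It was 0.97 in sham thalamus (exact permutation p = 0.00139, adjusted p = 0.00556) and 0.95 in TBI thalamus (exact permutation p = 0.00694, adjusted p = 0.0139). In TBI cortex it was 0.52 (exact permutation p = 0.306, the same after adjustment). By rank the relation (Spearman's rho) was 0.89 in both cortical groups (exact p = 0.0333, adjusted p = 0.0444), 1.00 in sham thalamus (exact p = 0.00278, adjusted p = 0.0111) and 0.83 in TBI thalamus (exact p = 0.0583, adjusted p = 0.0583). With scaling by library size alone no rank relation passed, with rho from 0.60 in TBI cortex to 0.89 in sham cortex and adjusted exact p from 0.0778 to 0.242. When the 2 rats whose miR-204-5p lay farthest from its median were dropped, r was 0.59 in sham cortex, 0.41 in TBI cortex, 0.86 in sham thalamus and 0.69 in TBI thalamus. It was thus lower in each group, and with 4 libraries remaining no test was made. Misread miR-204-5p reads would be counted as miR-211-5p and tie its level to that of miR-204-5p, and their part was not tested.

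**Figure D3:**
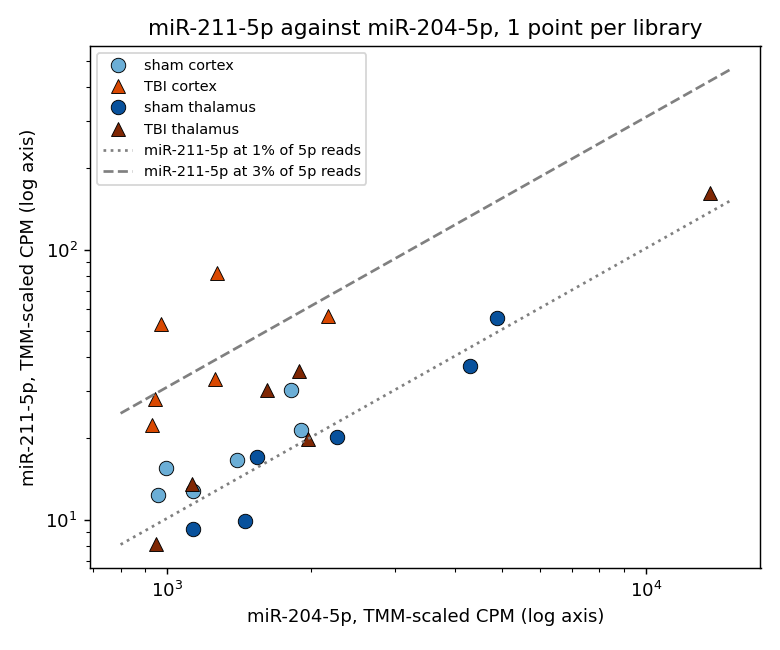
miR-211-5p against miR-204-5p in each of the 24 libraries, both as TMM-scaled CPM on log axes, with guide lines where miR-211-5p makes up 1% and 3% of the reads of the pair. Thalamic libraries follow the 1% line up to rat 45 at 13632 and 162 CPM, and the TBI cortices lie nearer to or above the 3% line.

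The miRNAs whose levels were most like those of the 5p strands were found from log2 CPM as deviations from the 4 group means, over 24 libraries and 360 other miRNAs that passed the filter in both regions, as a description. For miR-204-5p these were miR-211-5p (r = 0.91, rho = 0.84), miR-1298 (r = 0.88), miR-199a-5p (r = 0.85), miR-448-3p (r = 0.84) and miR-182 (r = 0.80). The genes of miR-1298 and miR-448 lie within Htr2c, the gene of a serotonin receptor, on GRCr8. For miR-211-5p they were miR-204-5p, miR-199a-5p (r = 0.75), miR-448-3p (r = 0.75), miR-1298 (r = 0.74) and miR-34c-5p (r = 0.71). Libraries of 1 rat and of 1 region are among these points, and rat 45 weighs heavily. miR-1298 reached 10511 CPM in its thalamus against a median of 340 CPM in the TBI group, and 3726 CPM in sham rat 50. Without rat 45 the 5 miRNAs nearest to miR-204-5p were the same 5, with r from 0.64 to 0.86. The group means behind these deviations still included rat 45, so its weight was not fully removed, for either 5p strand. For miR-211-5p the list changed without rat 45. miR-204-5p (r = 0.86), miR-448-3p (r = 0.64) and miR-1298 (r = 0.62) stayed among the 5, miR-34b-5p (r = 0.63) and miR-331-3p (r = 0.60) entered, and miR-34c-5p (r = 0.57) and miR-199a-5p (r = 0.56) stood 7th and 8th.

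In thalamic libraries alone the same 5 again stood nearest to miR-204-5p, led by miR-1298 (r = 0.97) and miR-211-5p (r = 0.96). In cortical libraries alone 2 of the 5 remained, miR-182 (r = 0.78) and miR-1298 (r = 0.75), and miR-34b-3p (r = 0.79) and miR-34c-5p (r = 0.78) were among the nearest. There miR-211-5p was 12th, with r = 0.65. For miR-211-5p in cortical libraries, miR-381-3p (r = 0.71) was the nearest and miR-204-5p was 4th.

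**Figure D4:**
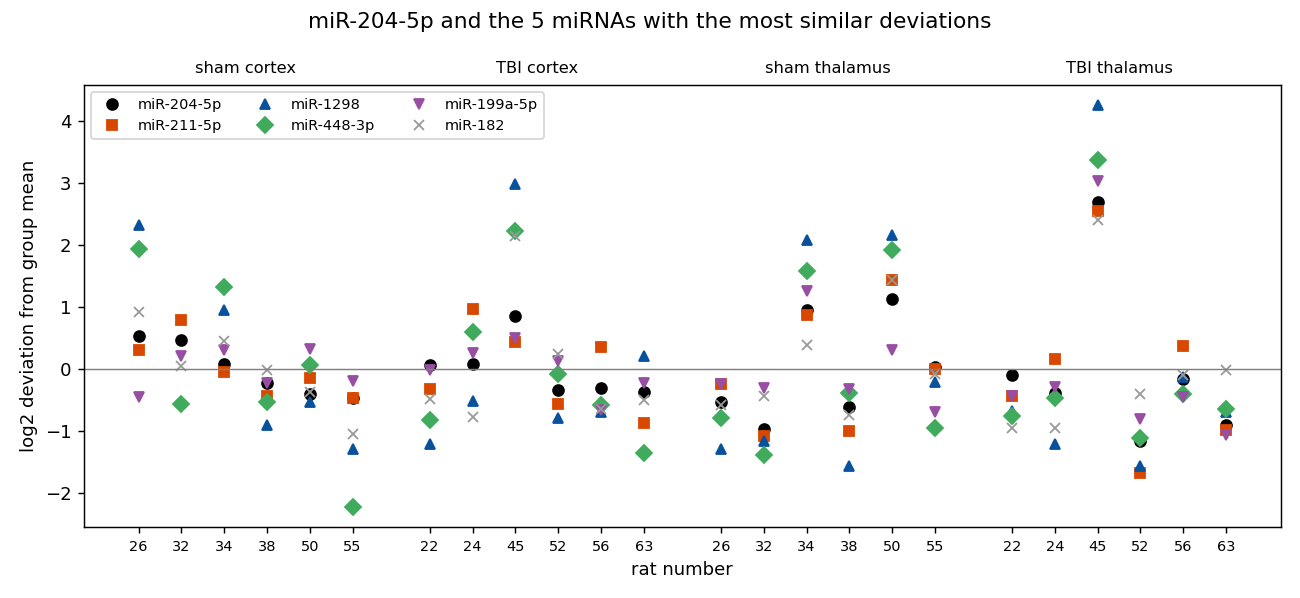
Deviation of miR-204-5p and its 5 most similar miRNAs from their own group means, in log2 units, for each rat in each group. All 6 stand far above 0 in the thalamus of TBI rat 45, and 5 of them, all but miR-199a-5p, stand well above 0 in the thalamus of sham rat 50.

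Markers of other cells were read beside the family, from lists chosen with earlier results of these data known. The miR-34b, miR-34c and miR-449 strands, abundant in multiciliated cells and the choroid plexus, summed to a median of 311 CPM in sham cortex (highest 616 CPM), 300.2 to 1286 CPM in TBI cortex, 1090 to 3701 CPM in sham thalamus and 1137 to 6500.0 CPM in TBI thalamus. The highest libraries were rat 45 in both TBI groups and rat 34 in sham thalamus, where miR-204-5p was also high. In sham thalamus the list summed to 2606 CPM in rat 50, which had the highest miR-204-5p (4890 CPM). It summed to 2363 CPM in rat 32, which had the lowest (1135 CPM). In thalamus against cortex, 4 of 4 tested strands were higher in shams (median log2 fold change 2.93, against 0.083 over all miRNAs tested) and 4 of 4 in TBI (2.03 against 0.091). Of all miRNAs tested, 50 of 375 in shams and 51 of 386 in TBI were higher. With injury none of the tested strands passed in cortex (0 of 3, median 0.81 against 0.049) or thalamus (0 of 4, median 0.16 against -0.034). miR-449a-3p, miR-449c-5p and miR-449c-3p were at 0 in all 24 libraries, and miR-449a-5p was at 0 in 5. The part of these cells in the levels of the family was not tested.

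Of the epithelial list 1 of 8 strands was tested and did not pass in any comparison. Of the sensory organ and pineal list 2 of 4 were tested, and miR-182 was higher in sham thalamus than in sham cortex, as were 50 of 375 miRNAs. That list summed to 91.5 CPM in the thalamus of sham rat 50, where the 5p strands of the family were at the top of their group. It summed to 36.5 CPM in the thalamus of sham rat 34, where miR-204-5p was 4301 CPM. The leukocyte and microglia strands (miR-150-5p, miR-142-5p, miR-142-3p and the miR-223 strands) summed to 789 to 1283 CPM in sham cortex and 863 to 1873 CPM in TBI cortex, and to 739 to 1177 CPM and 1031 to 1974 CPM in the corresponding thalami, and none passed in any comparison. Of the neuronal miRNAs 1 of 4, miR-128-3p, was lower in TBI cortex, where 10 of all 371 miRNAs tested passed as lower. The log2 differences of miR-9a-5p (-0.27), miR-138-5p (-0.072) and miR-124-3p (0.15) did not pass. In the region comparisons 3 of 4 neuronal strands were lower in thalamus than in cortex in each group of rats. They were miR-128-3p and miR-138-5p in both groups, with miR-9a-5p in shams and miR-124-3p in TBI. Of all miRNAs tested, 41 of 375 in shams and 30 of 386 in TBI were lower in thalamus. Of the muscle list 1 of 4 strands, miR-1-3p, was lower in TBI cortex, and 2 of 3 tested strands were lower in thalamus in each group. Of the vessel wall list 3 of 6 strands were lower in sham thalamus than in sham cortex, and none of the red cell strands passed in any comparison.

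**Figure D5:**
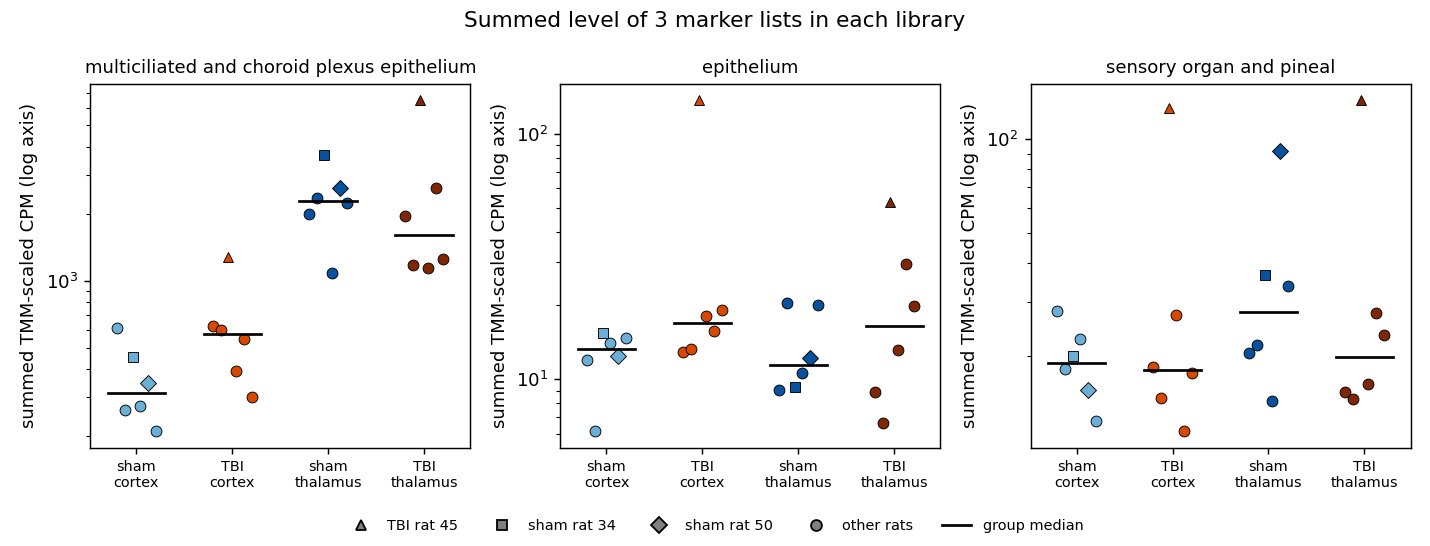
Summed level of the multiciliated and choroid plexus, epithelial, and sensory organ and pineal lists in each library, as TMM-scaled CPM on a log axis, with a bar at the group median (n = 6 per group). Rat 45 is the highest TBI library in each panel and region, and sham rat 50 (91.5 CPM) stands above the other sham thalami in the sensory list alone.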

How the data were processed

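Small RNA libraries (NEBNext kit, Illumina NextSeq) were made from total RNA of perilesional cortex and ipsilateral thalamus, 1 library per rat and region. Per the study's methods, the authors trimmed adapters, checked reads with FastQC, mapped them to the rat genome RGSC3.4 and annotated them with miRBase 20. The aligner is not given in the sources used here. The deposited count tables hold raw read counts per miRNA and were used as deposited, and no molecular identifiers were used. The authors' CPM tables of miRNAs and tRNA features, already filtered by the authors, served only for an alternative. The authors' miRNA CPM tables are the same counts on another scale and were not used.

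Rats were matched to groups and paired by the rat number in the labels. The deviations of a rat's 2 libraries from their group means correlated at a median of 0.45 (-0.26 to 0.67, above 0.1 in 8 of 12 rats, over 361 miRNAs), and the pairing itself comes from the animal. In TBI rats r lay between 0.33 (rat 63) and 0.67 (rat 45). In shams it was 0.57 in rat 34 and 0.29 in rat 38, but 0.021, -0.059, -0.23 and -0.26 in rats 55, 26, 32 and 50. Among the 60 pairs of libraries within a group, none were duplicates within sampling noise, and pairs across groups were not compared. edgeR 4.0.16 (R 4.3.3; filterByExpr, TMM, quasi-likelihood test, Benjamini-Hochberg over all miRNAs tested) gave each comparison after a check on simulated data. A call is an adjusted p under 0.05. Shares were tested by exact permutation (924 divisions, or 64 sign flips for pairs) and correlations over 720 orders in scipy 1.17.1, with 0.5 CPM added before logs. Intervals are Wilson intervals at 95%, and they cover counting error only. Alternatives were scaling by library size, by DESeq2's size factors or by 4 reference miRNAs, no filter, DESeq2 1.42.0, limma 3.58.1 on log2(CPM + 1), 1 fit of all 24 libraries, the replicate block, and leaving out each rat. Named miRNAs were the members, the 5 most similar to each 5p strand, those sharing a seed, and markers. The members and lists were chosen with earlier results of these data known.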

Additional observations from a re-analysis of the deposited data

Results flagged for a closer look

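In groups of 6, a library was picked out where its gap to the next one as a share of the group's range exceeded Dixon's 95% critical value. This was so in 11 of 60 groups examined, and 8 of the 11 were libraries of TBI rat 45. About 3 would be expected by chance for independent groups of normal values. The groups here draw on the same 24 libraries, so that figure is not a fair comparison.

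In TBI cortex miR-204-5p was 2170 CPM in rat 45 and at most 1272 CPM in the other rats. In TBI thalamus it was 13632 CPM in rat 45 and at most 1967 CPM in the others. miR-211-5p was 162 CPM in the TBI thalamus of rat 45, and the next highest was 35.4 CPM. The multiciliated and choroid plexus list summed to 1286 CPM in cortex of this rat (next highest 628 CPM) and to 6500.0 CPM in its thalamus (next highest 2618 CPM). Its epithelial list reached 137 CPM in cortex, against 19.2 CPM in the next library. Its sensory organ and pineal list reached 126 CPM in cortex (next 27.2 CPM) and 134 CPM in thalamus (next 27.5 CPM).

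The remaining 3 were in sham rats. The sensory list was 91.5 CPM in the thalamus of rat 50 (next 36.5 CPM), the epithelial list was low in the cortex of rat 32 at 6.16 CPM (next lowest 12.0 CPM), and the neuronal list was 325116 CPM in the thalamus of rat 55 (next 201399 CPM). In rats 32 and 55 no strand of the family stood apart.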

How the results depend on the processing

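Of 275 alternative values for the members, 223 kept their direction and their side of the threshold, or moved by less than 1 SD. Of the others, 20 were classed as reversed, 21 as weaker, 9 as stronger and 2 as moved.

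In TBI rats the region difference of miR-211-5p (0.090) changed sign with 4 reference miRNAs (-0.20), DESeq2 (-0.0075), no filter (-0.081), the replicate block (-0.46) and the block without rat 45 (-1.05). Those 2 paired fits gave 0.91 and 0.46 for miR-204-5p. In shams the block without rat 50 gave -0.050 for miR-211-5p, and the block changed no member's call. miR-204-5p passed there by library size alone (1.39, adjusted p = 0.00716), DESeq2 (0.94, adjusted p = 0.0370) and no filter (0.93, adjusted p = 0.0489). Its thalamic injury value was -0.10 in limma. The thalamic share difference as a log2 ratio was 0.50 (exact p = 0.0519), the arm difference in TBI rats as a log2 ratio 0.022, and r in sham cortex by library size 0.82 (adjusted p = 0.0611), and no rank correlation passed on that scale.

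miRNAs passing in cortical injury numbered 39 by library size (36 higher, 3 lower, all-miRNA median 0.25 against 0.049), 1 with reference miRNAs, 38 in DESeq2, 5 in the fit of all libraries and 55 in limma on CPM. In thalamic injury they numbered 0, 5 and 14 with reference miRNAs, all libraries and limma. For sham regions library size gave 147 (125 higher, 22 lower, against 50 and 41; median 0.45 against 0.083), and for TBI regions the block gave 150, or 164 without rat 45. The TBI region split of 51 higher and 30 lower became 25 and 46 with reference miRNAs. The cause was not tested.

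Leaving out 1 rat, the counts were 4 (without sham rat 38) to 30 (without sham rat 55) in cortical injury, 0 to 2 in thalamic injury, 63 to 128 in sham regions and 58 to 87 in TBI regions. Log2 fold changes for miR-204-5p were -0.36 to 0.017, -0.70 to 0.86, 0.62 to 1.23 and 0.50 to 1.77 in the same order, for miR-211-5p 1.07 to 1.58, -0.23 to 1.40, 0.064 to 0.89 and -1.06 to 0.47, and for miR-204-3p -0.34 to 0.19, -0.0037 to 0.66, 0.49 to 0.92 and 0.70 to 1.26. The miR-211 share differed by 1.80 to 2.54, 0.303 to 0.502, -0.477 to -0.316 and -2.50 to -1.89 percentage points (5 pairs cannot give an exact permutation p below 0.0625), and the arm share by -0.850 to 0.644, -1.03 to 0.0798, -0.0162 to 1.06 and -0.346 to 0.469.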
